A study of Mus musculus with 6 samples.

Results

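The regions described here are the methylated DNA peaks of mouse induced neurons at 5 dpi and at 7 dpi, 18009 of the 30143 peaks that were called in 6 libraries. The 5 dpi list held 3918 peaks and the 7 dpi list 14091, with each position counted once. Peaks of the 2 lists that overlapped by 1 bp or more were taken as shared, which applied to 1687 peaks of each list. The other 2231 peaks of the 5 dpi list and 12404 peaks of the 7 dpi list make up the 5 dpi only and 7 dpi only sets. The sets were formed from position alone, and "only" means that the other library's list held no overlapping peak, not that the other library held no reads there.

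Methylated DNA immunoprecipitation sequencing (MeDIP-seq) captures DNA fragments with an antibody to 5-methylcytosine and sequences them. All cells came from ICR mice and are labelled as 3 to 5 passages. Mouse embryonic fibroblasts (MEF) were taken from E13.5 embryos, induced neurons derived from MEF were sampled at 1, 3, 5 and 7 dpi, and primary hippocampal neurons came from 1-day-old pups. A single input DNA library served all groups. The labels do not spell out dpi, do not say how the neurons were induced, and name no sort, so the share of cells that had become neurons at 5 or 7 dpi is not known. Each group had 1 library, so no difference between times has a replicate check and no p-value is given. The files hold DNA alone, so the cell type could not be checked against expressed markers.

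In mammalian DNA, methylation falls mainly on cytosines followed by guanine (CpG). Most promoters rich in CpG stay free of it in somatic cells. Germline genes are a well known exception, since many of them carry a methylated, CpG-rich promoter outside the germ line, and imprinted genes carry methylation on a single parental allele. MeDIP pulls down fragments with many methylated CpGs most efficiently, so peak height depends on CpG density as well as on methylation. In a bulk sample, more methylated cells and more methylation per cell cannot be told apart.

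The promoter sequences below show what such peaks covered. They are RefSeq windows of GRCm38.p6, the assembly behind the mm10 coordinates of the files, and run from 250 bases before to 50 bases after a transcription start site (TSS). Each is printed 5′ to 3′ on the strand of its gene, in lower case with CpG in capitals. At least 150 of the 300 bases of each window lay inside a promoter peak. In the shared set these are Dazl at chr17:50293571-50293870 (minus strand, 28 CpG), Brdt at chr5:107330944-107331243 (plus strand, 23 CpG) and Mcts2 at chr2:152686898-152687197 (plus strand, 25 CpG). Dazl encodes an RNA-binding protein of germ cells, Brdt a testis bromodomain protein, and Mcts2 is an imprinted retrogene.
Dazl: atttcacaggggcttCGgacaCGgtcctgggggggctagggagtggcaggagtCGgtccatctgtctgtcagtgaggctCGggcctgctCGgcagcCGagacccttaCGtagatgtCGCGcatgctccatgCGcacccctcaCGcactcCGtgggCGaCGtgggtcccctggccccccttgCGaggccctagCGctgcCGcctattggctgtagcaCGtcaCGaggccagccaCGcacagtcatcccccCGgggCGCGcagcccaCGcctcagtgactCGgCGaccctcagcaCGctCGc
Brdt: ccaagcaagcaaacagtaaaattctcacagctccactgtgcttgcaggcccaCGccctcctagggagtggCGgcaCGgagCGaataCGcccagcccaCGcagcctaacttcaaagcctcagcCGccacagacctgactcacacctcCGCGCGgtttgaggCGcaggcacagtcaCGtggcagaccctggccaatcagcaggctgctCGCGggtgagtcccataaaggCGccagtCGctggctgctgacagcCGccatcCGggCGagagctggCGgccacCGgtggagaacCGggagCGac
Mcts2: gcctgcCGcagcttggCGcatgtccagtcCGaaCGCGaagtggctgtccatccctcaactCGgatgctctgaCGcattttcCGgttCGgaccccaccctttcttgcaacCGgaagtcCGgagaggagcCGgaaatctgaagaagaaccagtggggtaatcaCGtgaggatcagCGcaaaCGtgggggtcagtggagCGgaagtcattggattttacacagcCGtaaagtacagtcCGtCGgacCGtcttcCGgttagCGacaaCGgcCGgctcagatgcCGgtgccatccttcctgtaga

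Windows covered by a peak of the 5 dpi only set include Tex12 at chr9:50561219-50561518 (minus strand, 26 CpG), Sycp3 at chr10:88459337-88459636 (plus strand, 15 CpG) and Plagl1 at chr10:13090582-13090881 (plus strand, 26 CpG). Tex12 and Sycp3 encode proteins of the synaptonemal complex, which holds paired chromosomes together in meiosis. Plagl1 encodes an imprinted zinc finger factor.
Tex12: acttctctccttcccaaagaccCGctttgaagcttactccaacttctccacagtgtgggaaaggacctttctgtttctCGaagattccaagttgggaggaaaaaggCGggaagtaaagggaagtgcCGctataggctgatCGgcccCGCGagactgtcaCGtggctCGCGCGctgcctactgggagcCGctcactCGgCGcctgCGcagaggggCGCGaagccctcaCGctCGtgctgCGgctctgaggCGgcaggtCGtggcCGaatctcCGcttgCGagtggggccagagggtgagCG
Sycp3: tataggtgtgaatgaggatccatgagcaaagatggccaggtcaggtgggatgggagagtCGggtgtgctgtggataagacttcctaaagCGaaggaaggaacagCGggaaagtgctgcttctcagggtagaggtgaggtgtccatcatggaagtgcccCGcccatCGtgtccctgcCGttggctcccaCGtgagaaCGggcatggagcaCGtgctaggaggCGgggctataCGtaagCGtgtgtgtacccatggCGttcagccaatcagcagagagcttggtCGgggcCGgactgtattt
Plagl1: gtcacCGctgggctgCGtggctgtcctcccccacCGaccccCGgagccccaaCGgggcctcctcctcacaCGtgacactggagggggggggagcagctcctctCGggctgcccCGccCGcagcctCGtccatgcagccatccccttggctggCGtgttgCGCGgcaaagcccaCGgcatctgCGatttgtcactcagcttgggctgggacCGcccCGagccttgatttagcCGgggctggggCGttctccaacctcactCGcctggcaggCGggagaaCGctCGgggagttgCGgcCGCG

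Windows covered by a peak of the 7 dpi only set include Asz1 at chr6:18109012-18109311 (minus strand, 17 CpG), and, as a window poor in CpG, Aven at chr2:112559032-112559331 (plus strand, 6 CpG). Asz1 works in the piRNA pathway of germ cells and Aven encodes an inhibitor of apoptosis.
Asz1: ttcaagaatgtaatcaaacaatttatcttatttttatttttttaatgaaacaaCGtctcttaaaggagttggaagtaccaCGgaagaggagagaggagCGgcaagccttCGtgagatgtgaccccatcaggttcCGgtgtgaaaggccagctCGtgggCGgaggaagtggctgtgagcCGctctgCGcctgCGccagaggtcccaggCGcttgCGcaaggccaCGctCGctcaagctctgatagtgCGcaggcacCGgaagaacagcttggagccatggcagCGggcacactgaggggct
Aven: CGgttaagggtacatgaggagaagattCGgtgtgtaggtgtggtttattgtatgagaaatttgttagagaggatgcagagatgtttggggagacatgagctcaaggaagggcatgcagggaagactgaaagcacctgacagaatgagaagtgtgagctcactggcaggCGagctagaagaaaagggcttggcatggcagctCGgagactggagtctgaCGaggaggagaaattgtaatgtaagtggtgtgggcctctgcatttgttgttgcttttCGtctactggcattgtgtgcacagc

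Promoter windows under peaks of the 5 dpi list were richer in CpG than promoters at large. With 1 window per gene, 26994 genes had a median of 7 CpG, and 43.9% of them had 10 or more. The 13 windows under shared peaks had a median of 23 CpG, and 12 of them had 10 or more. The 20 windows under 5 dpi only peaks had a median of 17, and 18 had 10 or more. The 25 windows under 7 dpi only peaks had a median of 15, and 15 had 10 or more. Some windows belong to gene pairs that start in the same place, such as Plagl1 and Hymai or Usp29 and Peg3, and share sequence. Most promoter peaks lay off these windows and are not counted here.

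Short motifs were looked for on both strands of the same windows. CACGTG, the E-box core, was found in 7.24% of all windows, in 5 of 13 under shared peaks, in 6 of 20 under 5 dpi only peaks and in 3 of 25 under 7 dpi only peaks. GCGGGA, letters found in sites of E2F factors, was in 20.01% of all windows and in 2, 11 and 6 of the same sets. TGCCGC, the letters that the imprinting factor ZFP57 binds when methylated, was in 11.6% of all windows and in 6, 4 and 2 of them. All 3 motifs contain CpG, and among the windows with 10 or more CpG they were found in 11.1%, 40.3% and 22.4%. These matches describe letters and do not show binding, and the 3 motifs were counted separately, so matches may share bases. Windows of gene pairs that share sequence were each counted, which raises the counts. In the 5 dpi only set GCGGGA was in both windows of Plagl1 and Hymai, of Usp29 and Peg3, and of Naa11 and 4930467D21Rik.

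Of the 5 dpi peaks, 43.1% lay under a 7 dpi peak (95% exact Clopper-Pearson interval 41.5% to 44.6%). Of the 7 dpi peaks, 11.97% lay under a 5 dpi peak (11.4% to 12.5%). Intervals here and below cover counting error only. The 2 shares differ because the 7 dpi list is the longer. With equal numbers, the 3918 peaks of highest fold enrichment in each list, 29.8% of the 5 dpi peaks and 29.6% of the 7 dpi peaks were shared. Where peaks met they met closely: 1642 pairs matched one to one, their summits lay a median of 72.5 bp apart (quartiles 28.3 and 142 bp), and in 98.8% of pairs at least 50% of the shorter peak was covered. Near misses were few, with 136 of the 5 dpi only peaks (6.10%) and 108 of the 7 dpi only peaks (0.871%) within 1000 bp of a peak in the other list.

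The 2 lists do not reach down to the same number of reads. The deposited tag count at the summit takes every whole number in the 5 dpi list, but in the 7 dpi list it takes 30 of the 42 whole numbers from its lowest value of 19 tags, in steps that fit 1.406 tags per read. Taken that way, the weakest 5 dpi peak had 23 reads at its summit and the weakest 7 dpi peak 14. With both lists kept to peaks of at least 23 reads, 38.6% of the 5 dpi peaks and 23.3% of the 7 dpi peaks were shared. Library totals were not analysed here, so the depth behind each list is unknown, and the part that depth plays in the difference of list length was not tested. The authors' fold enrichment follows the tags closely. With tags taken as reads times the tags per read, unrounded, it equals tags plus 1 over a constant background of 5.95 in 77.9% of 5 dpi peaks and of 5.33 in 83.2% of 7 dpi peaks, within 0.5%. It is therefore no second readout, and the same fold does not stand for the same reads in the 2 lists: 5-fold needs 29 reads at 5 dpi and 19 at 7 dpi.

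Tall peaks were shared more often than low ones in either list. By quartile of summit reads in the 5 dpi list, 23.98%, 34.4%, 43.9% and 69.9% of peaks were shared, from the lowest quartile to the highest. In the 7 dpi list the same shares were 0.341%, 3.69%, 11.3% and 32.6%. The paired peaks had a median of 52 reads at 5 dpi and 30 reads at 7 dpi. Across these pairs the reads of the 2 libraries had a Spearman rho of 0.422, which describes sites that share CpG density and mappability and is given with no test.

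Peaks that the lists shared were the longest, and peaks found at 7 dpi only were nearly all of minimum size. Shared peaks had a median length of 628 bp in the 5 dpi list (quartiles 536 and 754) and 574 bp in the 7 dpi list (490 and 708). The 5 dpi only peaks had a median of 531 bp (492 and 610). Of the 7 dpi only peaks, 86.6% had the minimum length of 480 bp, against 14.97% of the 5 dpi only peaks and 21.7% of the shared peaks in the 7 dpi list. Median summit tags as deposited were 52 and 42 for the shared peaks at 5 and 7 dpi, 42 for 5 dpi only and 29 for 7 dpi only. In whole reads these medians were 52, 30, 42 and 21. In the 7 dpi list, 19.4% of the shared peaks and 1.06% of the 7 dpi only peaks were above 10-fold, and in the 5 dpi list 27.9% of the shared and 6.81% of the 5 dpi only peaks were.

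**Figure D1:**
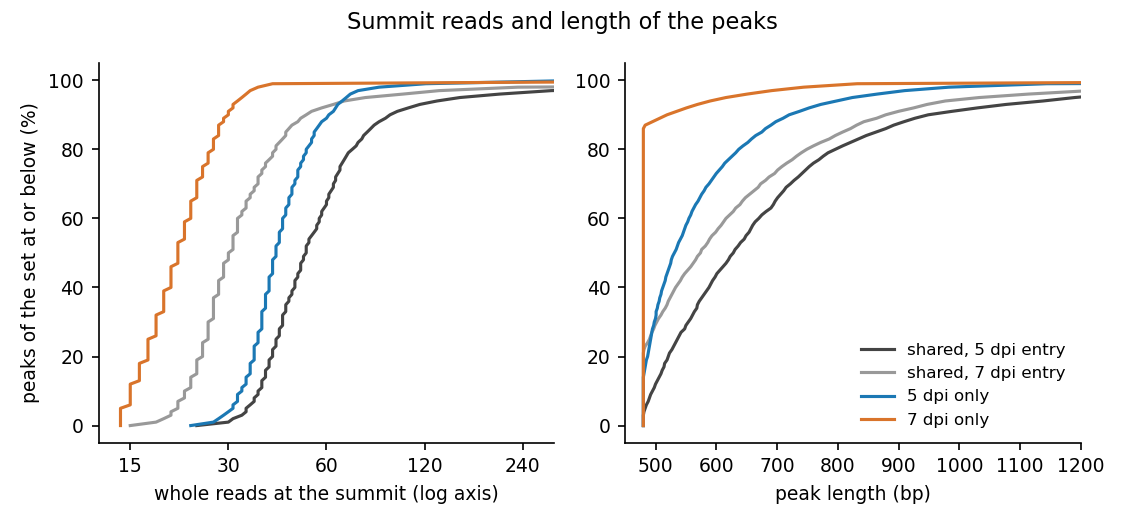
Cumulative share of the peaks of each set (%) by whole reads at the summit (log axis, left) and by length in bp (right), with the longest tails beyond the axes. Shared peaks are drawn once with their 5 dpi values and once with their 7 dpi values; the 7 dpi only curve starts at 14 reads and rises to 86.6% at 480 bp, while the 5 dpi only curve starts at 23 reads.

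The classes that the authors gave to the peaks were promoter (summit within 2 kb of a TSS), gene body and intergenic. Shared peaks lay between genes more often than the others: 76.1% of shared peaks were intergenic (73.9% to 78.1%), against 69.5% of 5 dpi only peaks (67.6% to 71.4%) and 70.2% of 7 dpi only peaks. Gene bodies held 21.6%, 26.7% and 26.4% of the 3 sets. Promoters held 40 shared peaks (2.37%, 1.70% to 3.22%), 85 of the 5 dpi only peaks (3.81%, 3.05% to 4.69%) and 421 of the 7 dpi only peaks (3.39%, 3.08% to 3.73%). Seen from the 5 dpi list, 32.0% of promoter peaks, 38.0% of gene body peaks and 45.3% of intergenic peaks had a 7 dpi partner. The intervals of the 5 dpi only and 7 dpi only sets overlapped in each class. With at least 23 reads in both lists, the promoter shares were 3.74% (3.02% to 4.58%) and 2.91% (2.46% to 3.41%). These intervals still overlapped, although each share lay outside the interval of the other.

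**Figure D2:**
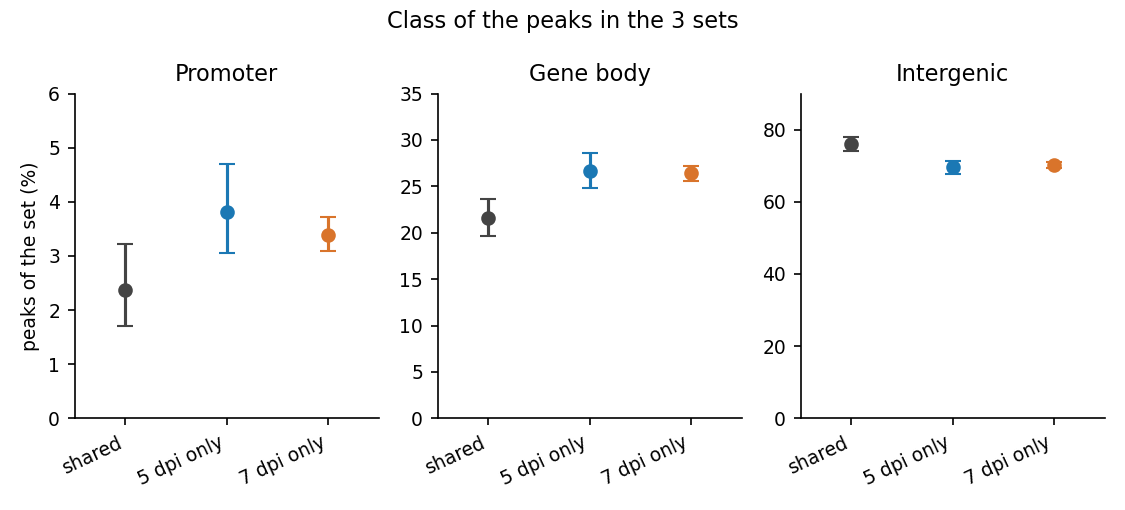
Share of the peaks of each set (%) in the promoter, gene body and intergenic classes, with 95% exact Clopper-Pearson intervals for counting error as bars and a separate scale from 0 in each panel. Shared peaks were 76.1% intergenic and 2.37% promoter, and the 5 dpi only and 7 dpi only sets were 69.5% and 70.2% intergenic.

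Within the promoter class the sets differed in where the summit lay. The summit was within 500 bp of the TSS in 17 of 40 shared peaks (42.5%, 27.0% to 59.1%) and in 36 of 85 of the 5 dpi only peaks (42.4%, 31.7% to 53.6%). Of the 421 promoter peaks found at 7 dpi only, 74 had it there (17.6%, 14.1% to 21.6%), and 241 (57.2%) had it more than 1000 bp away. With at least 23 reads, 28 of 145 such peaks (19.3%) were within 500 bp. The interval of the 7 dpi only set lies below those of the other sets.

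**Figure D3:**
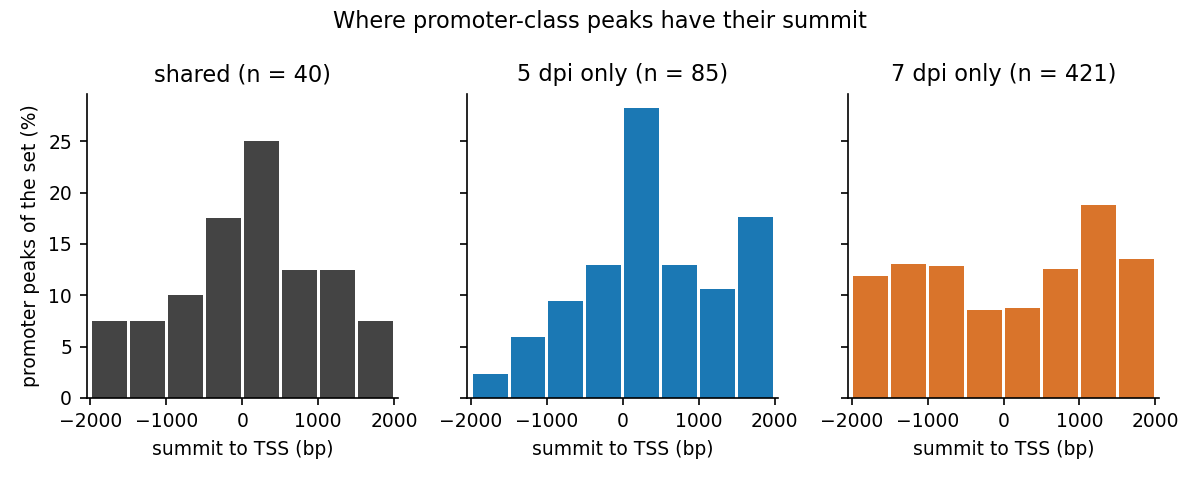
Position of the summit of promoter-class peaks relative to the TSS of the assigned gene, in bins of 500 bp, as a share of the promoter peaks of each set (%); negative values lie upstream. The bin from 0 to 500 bp past the TSS is the tallest in the shared set (25%) and in the 5 dpi only set (28.2%), and the bins on either side of the TSS are the lowest in the 7 dpi only set (8.55% and 8.79%).

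The lists of the other 4 libraries, which took no part in the split, separated the sets more than class did. Those lists differ in length, with 6636 peaks in primary neurons, 1886 at 1 dpi, 1447 at 3 dpi and 2165 in MEF. A longer list offers more peaks to overlap, and the shares below are not adjusted for that. A shared peak (5 dpi position) overlapped a peak of primary neurons in 55.1% of cases, of 1 dpi in 54.0%, of 3 dpi in 43.8% and of MEF in 18.8%. For 5 dpi only peaks the same shares were 26.5%, 26.04%, 15.2% and 5.16%. For 7 dpi only peaks they were 2.104%, 0.581%, 0.548% and 0.589%. Thus 52.4% of the 5 dpi only peaks (50.4% to 54.5%) and 96.7% of the 7 dpi only peaks (96.3% to 97.0%) were in no other list, against 20.7% of the shared peaks. The 4986 peaks of the 7 dpi only set with at least 23 reads reached 4.03% in primary neurons and 1.16%, 1.14% and 1.14% at 1 dpi, 3 dpi and in MEF. Lowest summits in the other lists were 20 to 24 reads, so those lists hold no peak as low as the lowest 7 dpi peaks.

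**Figure D4:**
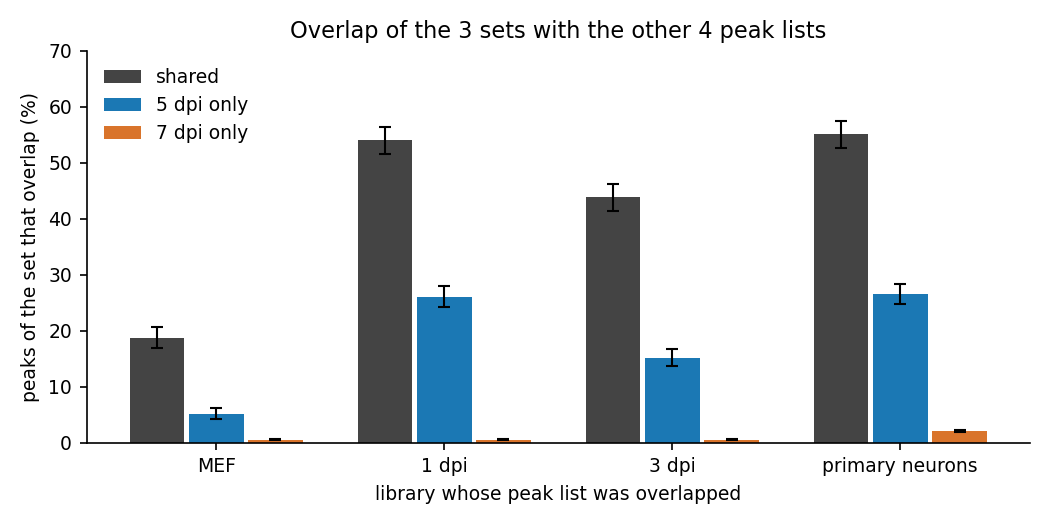
Share of the peaks of each set (%) that overlap by 1 bp or more a peak of MEF, 1 dpi, 3 dpi or primary neurons, with 95% exact Clopper-Pearson intervals for counting error. Shared peaks reach 55.1% in primary neurons, 5 dpi only peaks 26.5% and 7 dpi only peaks 2.104%. The shares are not adjusted for list length, which was 6636 peaks in primary neurons and 1447 to 2165 in the other lists.

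Peaks were assigned to 2926 genes at 5 dpi and to 7678 at 7 dpi, and 2204 genes were in both lists, 75.3% of the first and 28.7% of the second. For 804 of these genes the 2 lists held different peaks. Over 26219 RefSeq genes, 11.1% had a 5 dpi peak of any class and 29.2% a 7 dpi peak. With promoter peaks alone, the lists held 123 and 456 genes with 43 in common, 34.96% and 9.43%. The shares of all genes with a promoter peak were 0.461% at 5 dpi and 1.73% at 7 dpi. An intergenic peak is assigned to a gene that may be far off: the median distance from summit to TSS was 46586 bp for shared peaks (5 dpi positions), 39761 bp for 5 dpi only and 51688 bp for 7 dpi only peaks of all classes. The lists of genes below were therefore read mainly through promoter peaks.

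Germline genes held the largest count of promoter peaks among the shared and 5 dpi only sets, relative to list size. Of 52 germline genes, 5 had a shared promoter peak, where 0.141% of 26219 RefSeq genes did. A promoter peak of the 5 dpi only set was found at 9 of the 52, where 0.324% of all genes had one. The 7 dpi only set held 3, with a background of 1.60%. Any promoter peak was present at 14 of the 52 genes at 5 dpi and at 7 of them at 7 dpi, with backgrounds of 0.461% and 1.73%.

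The 5 germline promoters shared by both times were those of Dazl, Brdt, Sycp1, Tex11 and D1Pas1. At Dazl, whose promoter is printed above, the summit had 80 reads at 5 dpi (13.6-fold) and 25 reads at 7 dpi (6.78-fold). At Brdt it had 38 reads (6.56-fold) and 53 reads (14.2-fold). Dazl had the most reads of the 5 genes at 5 dpi and Brdt at 7 dpi. Sycp1, a transverse filament of the synaptonemal complex, had 57 and 27 reads. Tex11, an X-linked meiotic gene, had 37 and 26 reads. D1Pas1, a testis RNA helicase, had 43 and 35 reads. Across these 5 genes the 5 dpi summits ranged from 37 to 80 reads. A peak overlapped the same place at 1 dpi in 3 of the 5 and in primary neurons in 2, and in 0 of them at 3 dpi or in MEF. Among all 40 shared promoter peaks (5 dpi positions), 26 overlapped a 1 dpi peak and 18 a peak of primary neurons. A 3 dpi peak was overlapped by 14 of the 40 and a MEF peak by 8.

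The 9 germline promoters of the 5 dpi only set belong to Hormad1, Hsf2bp, Mov10l1, Slc25a31, Sohlh2, Sycp2, Sycp3, Tdrd1 and Tex12. Their summits had 34 to 69 reads with a median of 37, all above the 23 reads of the weakest 5 dpi peak. Mov10l1, a helicase of the piRNA pathway, had 69 reads, and its summit lay 166 bp upstream of the TSS. Tex12 had 40 reads with the summit 21 bp past the TSS, and Sycp3 had 36 reads. Hormad1, a protein of meiotic chromosome axes, had 35 reads with the summit 7 bp past the TSS. Of the 9 peaks, 5 overlapped a 1 dpi peak and 3 a peak of primary neurons, and 0 overlapped a peak at 3 dpi or in MEF. Of all 85 promoter peaks of this set, 32.9% overlapped a 1 dpi peak and 22.4% a peak of primary neurons. A 3 dpi peak was overlapped by 8.24% and a MEF peak by 2.35%. The 7 dpi only set held Asz1 with 28 reads, a second peak of D1Pas1 with 30 and a peak of Tdrd1, a Tudor protein of the piRNA pathway, with 27 reads.

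The germline genes could also be followed in the second readout, the tables of promoter regions that the authors compared with MEF. In the authors' deposited table for 5 dpi, Sycp2 had 49 reads against 1 in MEF. In the authors' deposited table for 7 dpi, which holds scaled values, a region of the same promoter had 27.7 against 0. Sycp2, a lateral element of the synaptonemal complex, was therefore above MEF at both times while its peak was called at 5 dpi only. In the authors' deposited table for 5 dpi, Sohlh2, a germ cell transcription factor, had 33 reads against 1, and in the authors' deposited table for 7 dpi it had 11.55 against 0. In the authors' deposited table for 5 dpi, Hsf2bp, a recombination factor, had 20 reads against 0, and in the authors' deposited table for 7 dpi it had 15.01 against 0.87. Asz1, of the 7 dpi only set, had 17 reads against 0 in the authors' deposited table for 5 dpi and 15.01 against 0 in the authors' deposited table for 7 dpi. At these 4 genes the "only" of the peak lists was not matched by the region tables. Hormad1 was also above MEF at both times, with 13 reads against 0 in the authors' deposited table for 5 dpi and, in a separate region of its peak, 11.55 against 0 in the authors' deposited table for 7 dpi. Other 5 dpi only promoters went the other way. Mov10l1 with 67 reads against 18, Slc25a31 with 28 against 4 and Sycp3 with 17 against 0 were above MEF in the authors' deposited table for 5 dpi and not listed over their peak in the authors' deposited table for 7 dpi. Tex12 was below MEF in the authors' deposited table for 7 dpi, at 0 against 12.99.

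Of the other germline promoters, D1Pas1 had 46 reads against 0 in the authors' deposited table for 5 dpi and 45.0 against 0 in the authors' deposited table for 7 dpi. Brdt had 37 against 6 reads in the authors' deposited table for 5 dpi and 61.2 against 5.2 in the authors' deposited table for 7 dpi. Dazl had 81 against 7 reads in the authors' deposited table for 5 dpi and was not listed over its peak for 7 dpi. These comparisons share the MEF library.

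The same tables covered most promoter peaks. Of the 85 promoter peaks of the 5 dpi only set, 70 (82.4%) overlapped a region higher than MEF in the authors' deposited table for 5 dpi, and 16 (18.8%) one in the authors' deposited table for 7 dpi. Of the 421 promoter peaks of the 7 dpi only set, 39 (9.26%) overlapped such a region in the authors' deposited table for 5 dpi and 385 (91.5%) one in the authors' deposited table for 7 dpi. Of the 40 shared promoter peaks, 31 (77.5%) and 25 (62.5%) did, 23 of them in both of the authors' deposited tables. Regions below MEF in the authors' deposited table for 7 dpi touched 9 of the shared promoter peaks (22.5%), 11 of the 5 dpi only peaks (12.9%) and 15 of the 7 dpi only peaks (3.56%). At Sycp1 the authors' deposited table for 7 dpi lists 24.3 against 0 in MEF in a region and 0 against 15.6 in a neighbouring region of the same peak. The peaks and the tables come from the same reads, so the 2 readouts are not independent.

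Imprinted genes were the next list. Of 50 imprinted genes, 2 had a shared promoter peak (background 0.141%), 5 a 5 dpi only peak (background 0.324%) and 3 a 7 dpi only peak (background 1.60%). Mcts2 and Peg10, a gene derived from a retrotransposon, were shared, with 45 and 52 reads at 5 dpi and 36 and 25 reads at 7 dpi. The 5 dpi only members were Peg13, Mest, Plagl1, Usp29 and Gnas. Peg13, an imprinted noncoding RNA, had 59 reads and 10.1-fold enrichment, and Mest, a hydrolase family gene, had 48 reads. Plagl1 had 42 reads and Usp29, a ubiquitin protease gene, 32 reads. Gnas, which encodes the stimulatory G protein alpha subunit, had 2 such peaks with 40 and 28 reads. The 7 dpi only members were Nnat with 37 reads, the noncoding Kcnq1ot1 with 28 and Commd1 with 15 reads, which is below the weakest peak of the 5 dpi list. Of these 3, Kcnq1ot1 alone also had a peak in MEF, and Nnat alone had one in primary neurons.

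In the authors' deposited table for 5 dpi, Plagl1 had 44 reads against 2 in MEF, Peg13 47 against 5, Mest 34 against 4, Usp29 28 against 0 and Gnas 21 against 0. The authors' deposited table for 7 dpi lists none of these 5 promoters over its peak. Peg10 had 39 against 4 reads in the authors' deposited table for 5 dpi and 18.5 against 0.87 in the authors' deposited table for 7 dpi. Kcnq1ot1, of the 7 dpi only set, had 28 against 3 reads in the authors' deposited table for 5 dpi and 15.01 against 0 in the authors' deposited table for 7 dpi. At this gene too the "only" of the peak lists was not matched by the region tables. Its peak also overlapped a peak in MEF, and the MEF values of 3 and 0 are those of the regions, not of the whole peak.

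Among the genes of DNA methylation itself, 2 of 29 had a promoter peak, both 5 dpi only, where 0.324% of all genes had one. Ctcfl, a testis paralog of the insulator protein CTCF, had 46 reads and 7.90-fold enrichment. Zbtb24, a zinc finger gene, had 31 reads and 3.16-fold enrichment. The genes of the methyltransferases and TET enzymes had 0 promoter peaks in either list, and the peaks assigned to Dnmt1 (5 dpi), Tet2 (7 dpi) and Mbd2 (both) were all intergenic.

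Promoter peaks at genes that define neurons or fibroblasts were counted next. Of 49 neuronal fate factors, 53 genes of neuronal structure and synapse, 60 channels and receptors and 50 fibroblast genes, 0 had a promoter peak at 5 dpi, where 0.461% of all genes had one, a share at which lists of this size hold few. In the 7 dpi only set there were 1, 3, 2 and 1, or 2.04%, 5.66%, 3.33% and 2%, beside the 1.60% of all genes. They were Prox1 among fate factors, Map2, Nrxn3 and Stmn3 among structural genes, Grm3 and Kcna1 among channels and receptors, and Dcn among fibroblast genes. Nrxn3, a presynaptic adhesion gene, had 26 reads and also a peak in primary neurons. Map2, a dendritic microtubule protein, had 16 reads and Dcn, a matrix proteoglycan, 14, both below the weakest 5 dpi peak.

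Muscle, astrocyte, microglial and endothelial lists of 20 genes each had 0 promoter peaks, a count that the backgrounds of 0.461% and 1.73% make usual for lists this short, and of 20 oligodendrocyte genes Ptgds alone had one, at 7 dpi with 15 reads. Of 39 HOX genes, Hoxa7 had a 7 dpi only promoter peak of 27 reads (2.56% of the list, beside 1.60% of all genes). Of 58 clustered protocadherins, 4 had a 5 dpi only and 4 others a 7 dpi only promoter peak. These shares were 6.90% each, beside 0.324% and 1.60% of all genes. The protocadherins are cell surface genes of neurons in tandem arrays, and these summits lay 1399 to 1712 bp past the TSS. Of 1464 olfactory and vomeronasal receptor genes, 1 had a shared, 4 a 5 dpi only and 17 a 7 dpi only promoter peak (0.0683%, 0.273% and 1.16%), no more than the backgrounds of 0.141%, 0.324% and 1.60%. Of 412 zinc finger genes, 3, 1 and 7 had one (0.728%, 0.243% and 1.70%), beside the same backgrounds. Of 106 keratin genes, 0, 0 and 3 did, the last being 2.83%. Members of tandem families are near copies, so the gene a read came from is uncertain there.

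**Figure D5:**
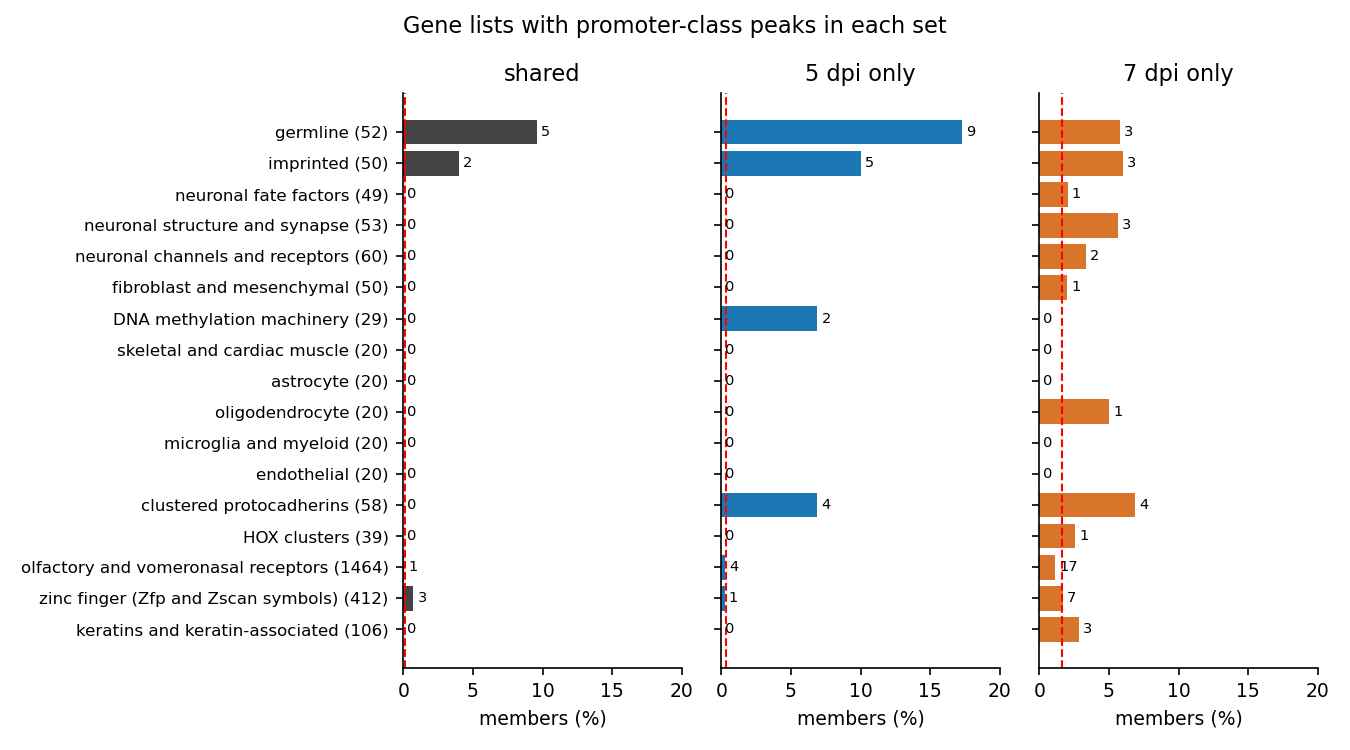
Share of the members of each gene list (%) with a promoter-class peak in the shared, 5 dpi only and 7 dpi only sets; the list size stands after its name, the number of members at the end of each bar, and the dashed line is the share over 26219 genes (0.141%, 0.324% and 1.60%). Germline genes lead in the shared (5 members) and 5 dpi only (9 members) sets, and no list passes 10% in the 7 dpi only set.

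With peaks of any class the picture was set by the 7 dpi list. A 7 dpi only peak of any class was assigned to 27.1% of all genes, a 5 dpi only peak to 7.20% and a shared peak to 5.31%. Neuronal channels and receptors had a 7 dpi only peak in 44 of 60 cases (73.3%), genes of neuronal structure in 35 of 53 (66.0%), fibroblast genes in 24 of 50 (48.0%) and neuronal fate factors in 23 of 49 (46.9%). Astrocyte and endothelial genes had one in 10 of 20 cases each (50%). The median gene length was 231 kb in the list of channels and receptors, 103 kb in that of neuronal structure, 33.9 kb for fibroblast genes and 6.89 kb for fate factors, beside 14.3 kb over all genes and 29.5 kb over genes with a 7 dpi only peak. The part of gene length in these counts was not tested. In the 5 dpi only set the channels had 12 members (20%), with Kcnd2, a potassium channel, at 12.6-fold far upstream of its TSS and Cacna1c, a calcium channel, at 11.9-fold in its gene body.

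Peaks of unnamed clone or predicted genes are left out of the rankings that follow. Shared peaks were ranked by the lower of their 5 dpi and 7 dpi folds, each on the scale of its own list. At promoters they were led by Vmn2r29, a vomeronasal receptor gene on chromosome 7 (7277352 to 7278606). Its peak had 290 reads and 28.7-fold at 5 dpi and 89 reads and 18.0-fold at 7 dpi. This peak was present in all 6 lists. It was followed by Erdr1 on Y, Zfp3, Prpf18, a splicing factor, Snord37, a small nucleolar RNA, and Pik3r4, a subunit of a lipid kinase in autophagy. In gene bodies the shared leaders were Secisbp2l with 322 and 131 reads (54.3-fold and 34.7-fold), Erdr1, Mob4 and Pigf, an enzyme of GPI anchor synthesis. Between genes they were peaks assigned to Mcfd2, Vrk1, Pfdn4 and Dtnbp1, with 114 to 314 reads at 5 dpi and 76 to 140 at 7 dpi.

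Ranked by fold among named genes, the 5 dpi only set was led at promoters by Ankrd9 on chromosome 12 (110976812 to 110977617) with 67 reads and 11.4-fold. Zfp768, a zinc finger gene, had 66 reads and Peg13 59 reads. Efcab4a, the histone gene Hist1h4n and the helicase gene Dhx16 came next, with 55 to 57 reads. In gene bodies the leaders were Taf1a, a subunit of the RNA polymerase I factor SL1, with 129 reads and 21.9-fold, then Sez6l, Setbp1 and Zfp68. Between genes Csnk1g3, Rnls, Dfna5 and Myom2 were nearest to peaks of 104 to 121 reads. These peaks were picked for the highest fold. The 5 dpi only set as a whole had a median of 42 reads, below the 52 reads of the shared peaks at 5 dpi.

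By fold among named genes, the 7 dpi only set was led at promoters by Prickle2, a planar cell polarity gene. Its peak on chromosome 6 (92565410 to 92566124) had 41 reads and 11.0-fold. Slc25a21, a mitochondrial carrier, had 39 reads, and the apolipoprotein gene Apoa4 37. Polr1a, the large subunit of RNA polymerase I, and Osbpl1a, a lipid-binding protein, had 36 reads each, and Gdf1, a growth factor of the TGF-beta family, 35. The authors' deposited table for 7 dpi gives Polr1a 41.6 against 0 in MEF, Gdf1 39.3 against 0 and Apoa4 48.5 against 2.6, and none of these 3 was listed over its peak in the authors' deposited table for 5 dpi. In gene bodies Zfp934, Cdh13, a cadherin, Socs5 and Cyp2d22 led with 50 to 57 reads, and between genes Endou, Sall3, Riok2 and Dennd1c with 52 to 58. These peaks too were picked for the highest fold. The 7 dpi only set as a whole had a median of 21 reads, below the 30 reads of shared peaks at 7 dpi.

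Some genes collected several peaks of a set. Erdr1 had 19 shared peaks and 5 of the 5 dpi only set, all on chromosome Y. The bHLH neuronal factor gene Atoh1 had 4 shared intergenic peaks. In the 5 dpi only set Ncam2, a neural cell adhesion gene, had 7 intergenic peaks of 4.45-fold to 7.90-fold. Zswim2 also had 7 intergenic peaks, of 10.9-fold to 14.3-fold, and these lay within a short stretch of chromosome 2 from 83954600 to 83990099. In the 7 dpi only set Slc39a10, a zinc transporter gene, had 15, Cntnap2, a neuronal adhesion gene, 14 and Pcmtd1 14, with a highest fold of 6.72, 8.10 and 8.36.

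By chromosome, the share of 5 dpi peaks with a 7 dpi partner ran from 36.5% on chromosome 8 to 47.8% on chromosome 12 among autosomes. It was 46.2% on X and 69.7% on Y (23 of 33, 51.3% to 84.4%). In the 7 dpi list it ran from 9.23% on chromosome 1 to 14.1% on chromosome 12, with 17.0% on X and 48.1% on Y (26 of 54, 34.3% to 62.2%). Of the 23 on Y at 5 dpi, 19 were assigned to Erdr1. The intervals of Y lie above the 43.1% and 11.97% of the whole lists. A few sites held very many tags: 30 peaks of the 5 dpi list and 29 of the 7 dpi list had more than 1000, and 30 and 27 of them were shared. Of the 30 and 29, 18 and 15 lay at the start of chromosome 9, at chr9:3000151-3038590 in the 5 dpi list. Over all 30 and 29 peaks, folds were 1.41 to 3.27 at 5 dpi and 1.28 to 2.39 at 7 dpi. The 2 such 7 dpi peaks that were not shared were assigned to Ly6c2 and Pak3, named here after their values were seen.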

How the data were processed

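MeDIP-seq peak lists of 6 libraries, 1 per group, were used, together with tables of promoter regions at 5 and 7 dpi against MEF. Reads were handled with CASAVA and mapped with Bowtie2 2.1.0 to mm10, per the submitters' processing notes. No peak caller, peak threshold or table test is given in the sources used here. Per the file headers, the authors deposited for each peak a summit tag count (signal), a fold enrichment (a ratio to their background), a q-value on a −log10 scale, a class and a gene. Entries that repeat a position for another gene (68 at 5 dpi, 90 at 7 dpi) were counted once as peaks and kept for genes. The deposited region tables hold whole read counts at 5 dpi and a scaled signal at 7 dpi (smallest values above 0: 1.15 in 7 dpi, 0.87 in MEF), beside the authors' log2 ratio, p-value and q-value per region, which are not printed.

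Overlap was computed with bedtools 2.31.1 (1 bp or more), all else with Python 3.11.15, numpy 2.4.6, pandas 2.3.3 and scipy 1.17.1; figures were drawn with matplotlib 3.10.9. The overlap code and the fit of tags per read were tested on simulated data. Groups follow the sample titles. Of 8400 gene identifiers, 8371 matched RefSeq, and 26219 RefSeq genes formed the background. Members and gene lists were chosen with earlier results of these data known. Genes were named by a rule: in each set the 6 promoter, 4 gene body and 4 intergenic peaks of highest fold, 1 per gene and without unnamed clone or predicted genes; germline, imprinted and methylation genes with a promoter peak; the top members of other lists; and the 3 genes with most peaks. Some members of other lists were named for promoter peaks after their values were seen. Alternatives were an overlap of 50%, a 5-fold limit, equal list lengths, autosomes only, promoter peaks alone, and, chosen after seeing the data, at least 23 reads and whole reads in place of tags.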

Additional observations from a re-analysis of the deposited data

Results flagged for a closer look

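Only regions over promoter peaks of the 3 sets were searched, with 1 region per peak and table, so a peak was present in advance. At 5 of these promoters the authors' deposited tables put 5 dpi above MEF and 7 dpi below MEF in regions that overlap. Each group had 1 library, and the difference was not tested. All 5 peaks were of the 5 dpi only set, which is no separate readout because peaks and tables come from the same reads. 4930568E12Rik had 62 reads at 5 dpi against 14 in MEF, and a scaled value of 0 at 7 dpi against 11.3 in MEF, in a region of 220 bp that lay wholly inside the first. At Chpf2 the 5 dpi region had 47 reads against 2, and the 7 dpi region 0 against 11.3, with 100 bp in common. At Fat1, an atypical cadherin gene, the values were 44 against 3 and 0 against 11.3, with 160 bp in common. At Olfr281 they were 32 against 0 and 0 against 15.6, with 100 bp in common. At Tmprss6, a serine protease gene, they were 31 against 5 and 0 against 12.99, with 40 bp in common. Apart from 4930568E12Rik, the regions of a pair cover partly different bases, so their MEF values are not for the same place.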

How the results depend on the processing

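No paired analysis was possible because each group has 1 library, and no replicate could be left out for the same reason. An overlap of 50% and autosomes alone moved no share or median beyond its interval. With peaks of at least 5-fold, 16.7% of 7 dpi peaks were shared and the 7 dpi only tag median was 33. With equal numbers of peaks, 29.8% of 5 dpi and 29.6% of 7 dpi peaks were shared; medians were 609 bp and 44 tags for shared peaks at 7 dpi, 544 bp and 43 tags for 5 dpi only, and 39 tags for 7 dpi only. With at least 23 reads, chosen after seeing the data, 38.6% and 23.3% were shared, the 7 dpi only promoter share was 2.91%, the shared median at 7 dpi 589 bp and the 7 dpi only median 36 tags. In whole reads, also chosen after seeing the data, the tag medians at 7 dpi were 30 (shared) and 21 (7 dpi only). The cause of these moves was not tested beyond the change in which peaks enter. Of 51 list counts, 43 kept within 1.5 times their value at 5-fold and 8 did not; with promoter peaks alone 44 did not. Library depth is unknown, and a peak absent from a list may lie just under its limit of 23 or 14 reads.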

Other observations

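Promoter peaks of the 5 dpi only set lay more often past the TSS than before it: 26 of 85 (30.6%) had the summit upstream. In the 7 dpi only set 195 of 421 (46.3%) did, and in the shared set 17 of 40 (42.5%).

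Peaks that overlapped a peak in each of the 4 libraries outside the split were rare, and only shared peaks could be in all 6 lists. Of the shared peaks, 184 (10.9%) overlapped a peak in each of the other 4 libraries, as did 29 (1.30%) of the 5 dpi only and 0 of the 12404 peaks of the 7 dpi only set. At promoters, 65.0% of the 40 shared peaks overlapped a 1 dpi peak and 35% a 3 dpi peak, against 32.9% and 8.24% of the 85 promoter peaks of the 5 dpi only set. Of the 7 dpi only promoter peaks, 6 of 421 overlapped a peak of primary neurons.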
